A study of Mus musculus with 12 samples.

Results

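The genes described here encode the DNA replication machinery of mouse embryonic stem cells. The 45 members were taken by gene symbol from a count table of 32285 genes, and all 45 were found. By role they are 7 origin licensing and firing factors, 11 subunits of the replicative helicase, 9 polymerase and primase subunits, 9 clamp, clamp loader and single-strand binding proteins, 2 flap processing and ligation enzymes, 4 nucleotide supply enzymes, and 3 factors of chromatin assembly and histone mRNA binding. The cells were IB10 embryonic stem cells, a 129/Ola-derived line, grown untreated on gelatin in conditioned medium with serum and leukemia inhibitory factor. The libraries covered 4 genotypes with 3 each: wild type, a DHX36 knockout, a FANCJ knockout (the mouse gene is Brip1) and a DHX36/FANCJ double knockout. DHX36 and FANCJ are helicases that unwind G-quadruplexes, structures of stacked guanines in RNA and DNA, and the expression data show how transcript levels differed without either or both. The sources used here leave unsaid how many clones a knockout stands for and which part of each gene was deleted. Differences between genotypes therefore cannot be told apart from differences between clones, and since nothing says that the libraries came from separate cultures, p-values measure the spread between these libraries, which may be technical.

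Replication starts at origins that the origin recognition complex (ORC), Cdc6 and Cdt1 load with the MCM ring, a helicase of subunits Mcm2 to Mcm7. Cdc45 and the GINS complex join that ring to make the active helicase, primase and polymerase alpha lay the first primers, and polymerases delta and epsilon, held by the PCNA clamp, copy the strands. Embryonic stem cells divide fast with a short G1 phase, and many of these genes are transcribed ahead of S phase under E2F factors.

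Libraries held 4284785 to 14721931 counts, of which the members took 0.581% to 0.688%. Values are given in CPM, counts divided by a normalised library size. The method tags 3′ ends, so a level shows differences of 1 gene between libraries and is not compared between genes. The lowest count of any member in any library was 15, for Rpa3, and all 45 passed the filter on low counts. Genotypes were compared by edgeR's quasi-likelihood test over 12765 genes, with Benjamini-Hochberg adjusted p-values over all of them and a threshold of 0.05. "Rose" and "fell" are used for members past that threshold, and a negative log2 fold change is a lower level in the first-named genotype. Dhx36 had 54.1 ± 3.79 CPM in wild type (SD, n = 3) against 10.5 ± 1.45 in the DHX36 knockout and 13.9 ± 1.54 in the double knockout. Brip1 had 6.87 ± 0.154 CPM in wild type against 0.338 ± 0.253 in FANCJ knockout and 0.414 ± 0.295 in double knockout libraries. The labels of both targeted genes therefore fit their levels.

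Promoter sequence was available for 37 of the 45 members, as RefSeq windows of GRCm38.p6 from 250 bases before to 50 after the annotated start. Where a gene had several windows, only the first listed was searched. Both strands were searched for the E2F letters TTGGCGC, their variant TTCCCGC, and both mixed forms, one TTCGCGC, the other TTGCCGC. They were also searched for CCAAT, which NF-Y binds, and for the G-quadruplex motif of 4 runs of at least 3 G with loops of 1 to 7 bases. E2F letters were in 22 of the 37 windows (59.5%), against 17.8% of the 9988 tested genes with a window and 9.69% of all 27025 genes with a window. CCAAT was in 24 members (64.9%), against 39.1% of tested genes and 37.9% of all genes with a window. In 3 members a CCAAT match overlapped an E2F match. The G-quadruplex motif was in 9 members (24.3%), against 28.2% of tested genes and 18.1% of all genes with a window. The median GC content was 61.3% in members and in tested genes. A match is a description of the letters and does not show that a factor was bound.

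The promoters of members on which the comparisons turn are printed 5′ to 3′. Pola1 (chrX:93632106-93632405, minus strand) and Mcm3 (chr1:20820263-20820562, minus strand) held 4 and 3 E2F matches, shown in capitals. In Mcm3 the matches at 39 to 46 and 42 to 49 bases past the start overlap on opposite strands and share capitals.
Pola1: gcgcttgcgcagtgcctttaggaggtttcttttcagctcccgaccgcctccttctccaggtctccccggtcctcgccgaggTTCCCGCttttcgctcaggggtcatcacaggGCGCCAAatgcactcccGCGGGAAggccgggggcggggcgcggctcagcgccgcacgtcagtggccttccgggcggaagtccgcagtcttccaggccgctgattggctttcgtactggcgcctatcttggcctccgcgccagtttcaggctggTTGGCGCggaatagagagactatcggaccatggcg
Mcm3: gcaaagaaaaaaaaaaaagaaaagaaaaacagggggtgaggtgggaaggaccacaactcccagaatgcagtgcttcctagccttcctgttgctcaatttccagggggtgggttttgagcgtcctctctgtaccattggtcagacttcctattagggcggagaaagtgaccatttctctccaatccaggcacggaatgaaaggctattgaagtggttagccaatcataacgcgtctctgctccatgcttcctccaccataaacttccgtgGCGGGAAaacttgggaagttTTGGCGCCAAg
Pold2 (chr11:5878207-5878506, minus strand) and Mcm2 (chr6:88898731-88899030, minus strand) held no match to the E2F letters, and their capitals mark the G-quadruplex motif instead. Pold2 had 3 CCAAT matches and Mcm2 had 1.
Pold2: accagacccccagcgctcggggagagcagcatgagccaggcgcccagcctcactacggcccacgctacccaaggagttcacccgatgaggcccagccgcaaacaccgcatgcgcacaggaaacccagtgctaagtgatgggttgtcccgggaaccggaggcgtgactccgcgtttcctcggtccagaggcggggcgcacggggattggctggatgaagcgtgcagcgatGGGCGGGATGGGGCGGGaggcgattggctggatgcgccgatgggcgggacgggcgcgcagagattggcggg
Mcm2: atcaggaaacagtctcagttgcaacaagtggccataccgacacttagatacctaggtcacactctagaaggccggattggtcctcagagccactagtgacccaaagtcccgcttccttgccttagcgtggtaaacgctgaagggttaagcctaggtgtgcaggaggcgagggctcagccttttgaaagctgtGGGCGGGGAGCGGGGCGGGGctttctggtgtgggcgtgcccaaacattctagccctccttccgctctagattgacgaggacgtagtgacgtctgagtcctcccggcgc
Within the longest coding transcript of each gene, the G-quadruplex motif on the sense strand was in the 5′ UTR of 4 members (Gmnn, Mcm10, Pold2 and Rfc2), 8.89% against 8.7% of tested genes. It was in the coding sequence of Mcm5 and in the 3′ UTR of Cdc6 and Gins2, 4.44% against 12.1% of tested genes for the 3′ UTR. The members' 3′ UTRs were shorter, with a median of 571 bases against 1150. Pold2 is the 1 member that fell past the threshold in all 3 knockout genotypes, and how many of all genes did so was not counted. Its promoter match and 5′ UTR match are the same letters, since the GENCODE transcript starts ahead of the RefSeq start. Of the others with a 5′ UTR match, Mcm10 rose in the double knockout, and Gmnn and Rfc2 did not pass against wild type. Of the others with a promoter match, Cdt1, Pold1 and Rrm1 fell in some knockout genotype and Mcm2 rose in the DHX36 knockout. Orc6, Mcm6, Rpa1 and Dut did not pass against wild type. The map of motif matches shows none of the 3 kinds for Pola2, Rfc5, Fen1, Lig1 and Tyms. Fen1 and Lig1 had 2 and 3 windows, and those past the first were not searched.

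**Figure D1:**
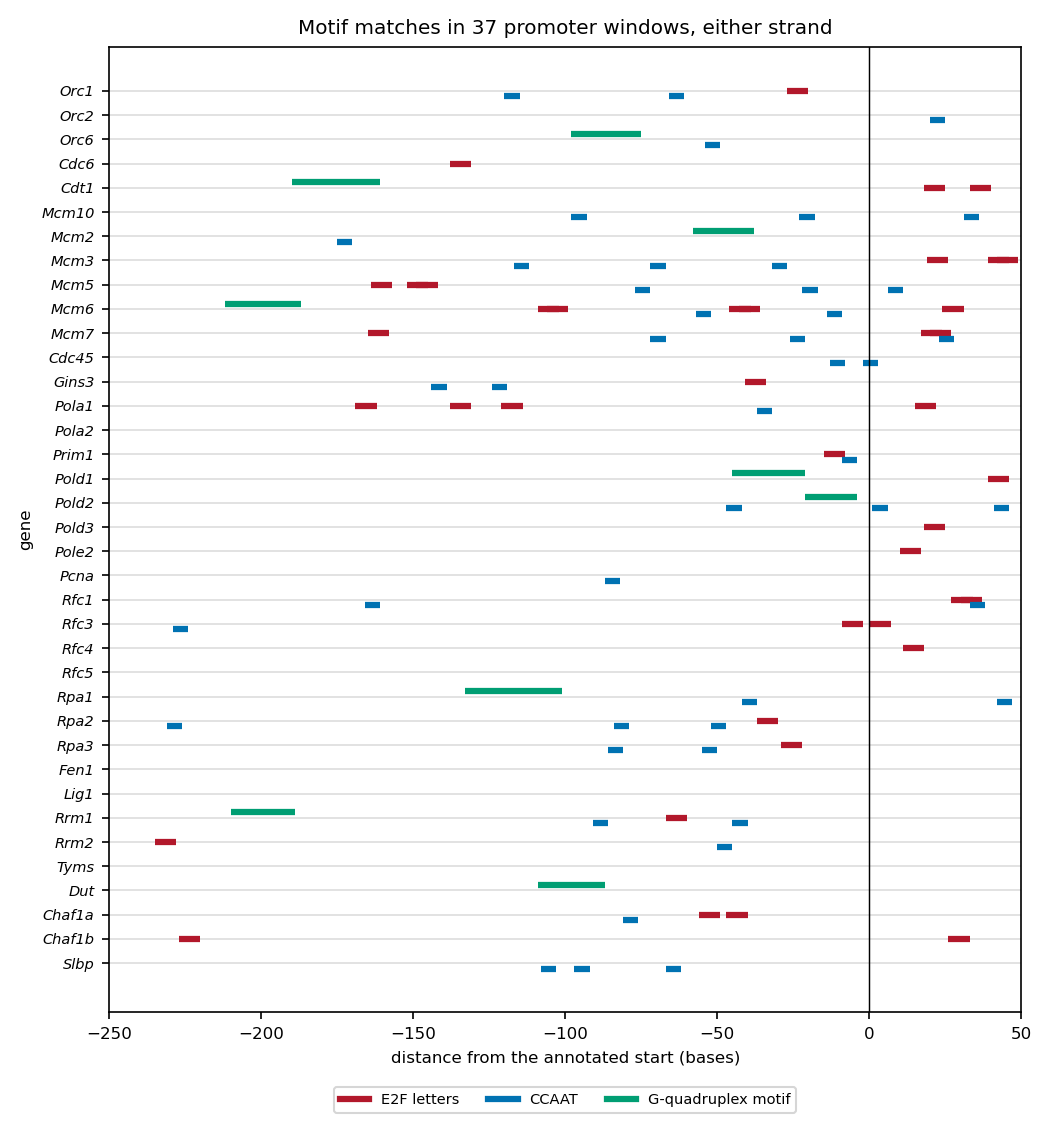
Positions of matches to the E2F letters, CCAAT and the G-quadruplex motif (coloured marks) in the 37 promoter windows, as distance in bases from the annotated start. E2F letters are found in 22 windows, CCAAT in 24 and the G-quadruplex motif in 9.

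In the DHX36 knockout 1 member rose and 10 fell, together 24.4% of the 45, against 24.4% of all genes tested. By direction the all-gene shares were 12.8% up and 11.6% down. In the FANCJ knockout no member rose and 2 fell (4.44%), against 2.07% of all genes, 1.45% up and 0.619% down, and 8 members had an unadjusted p under 0.05, against 15% of all genes. In the double knockout 2 rose and 9 fell (24.4%), against 33.9% of all genes, 16.6% up and 17.3% down. The share of members past the threshold was thus at or under that of all genes wherever DHX36 was lost, while the members that passed were mostly lower. The median log2 fold change of the members was -0.17, -0.08 and -0.10 in the DHX36, FANCJ and double knockouts, beside 0.0045, -0.0026 and 0.0063 for all genes tested. With 1 library left out the members' medians ran from -0.23 (without DHX36 knockout library 1) to -0.11 (without library 3 of that genotype), from -0.11 to -0.05 (without FANCJ knockout library 1), and from -0.13 to -0.07. Fold changes were negative for 35, 34 and 32 of the 45. These 3 comparisons share the wild-type libraries, so their directions are not independent of each other.

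With every library thinned to 4284785 counts, the total of the shallowest, 8, 1 and 10 members passed in place of 11, 2 and 11. The counts of all genes at that depth are not given here, so the drop does not set the members apart from other genes. Counted by library, 17 members lay below wild type with no overlap in the DHX36 knockout and 4 above, where 18.1% and 19.6% of all genes did so. In the FANCJ knockout 10 lay below and 1 above, against 8.7% and 10% of all genes. In the double knockout 14 lay below and 4 above, against 22.1% and 23.1%. Summed over the 45 members, the level was 6649 ± 221 CPM in wild type, 6180 ± 194 without DHX36, 6354 ± 132 without FANCJ and 5976 ± 286 without both (SD, n = 3). Abundant members weigh most in this sum. The mean of Rrm2 was 1633 CPM in wild type and 1405 without both, and that of Pcna was 800 and 630. The 28 members that passed in none of the 3 comparisons with wild type include 5 of the 6 MCM ring subunits, Cdc6, Gmnn, Rrm2 and Dut. The share of all genes that passed in none of the 3 was not counted. The heat map gives the level of every member in every library, and the plot of fold changes gives each member's difference with its SE.

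**Figure D2:**
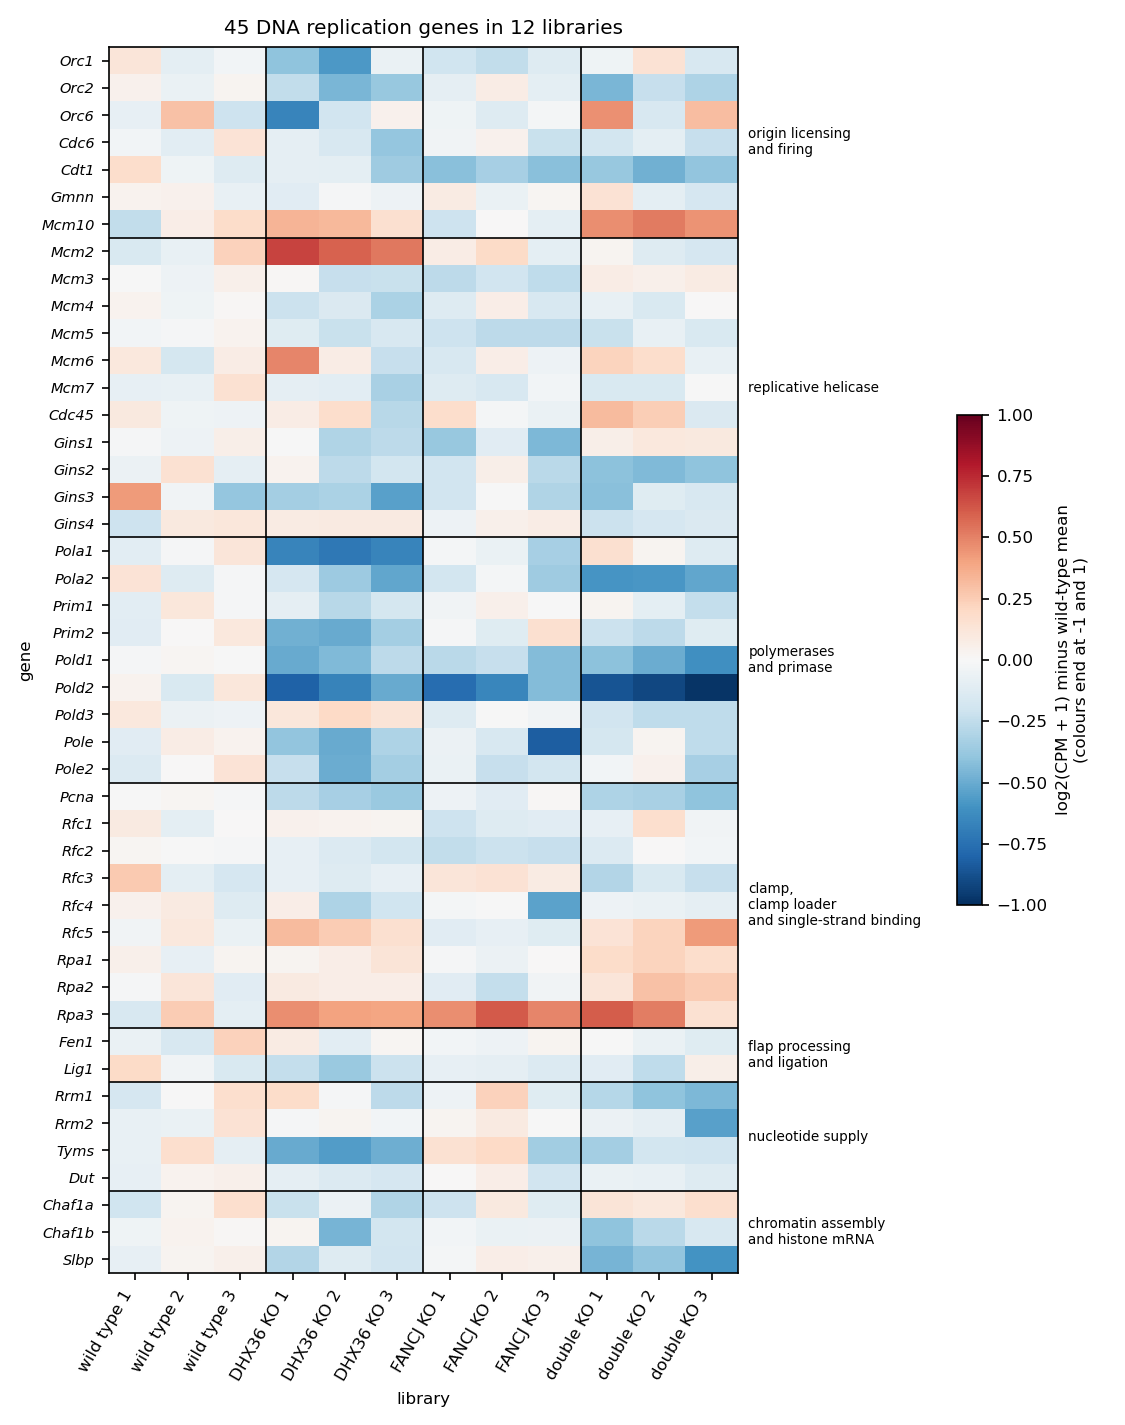
Level of each of the 45 members (rows, in role order) in each of the 12 libraries (columns), as log2(CPM + 1) minus the wild-type mean, with colours ending at -1 and 1. In the DHX36 knockout 6 of the 9 polymerase rows fell past the threshold, beside 11.6% of all genes. The rows of Mcm2 and Pola1 differ from wild type in the DHX36 knockout but not in the double knockout.

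**Figure D3:**
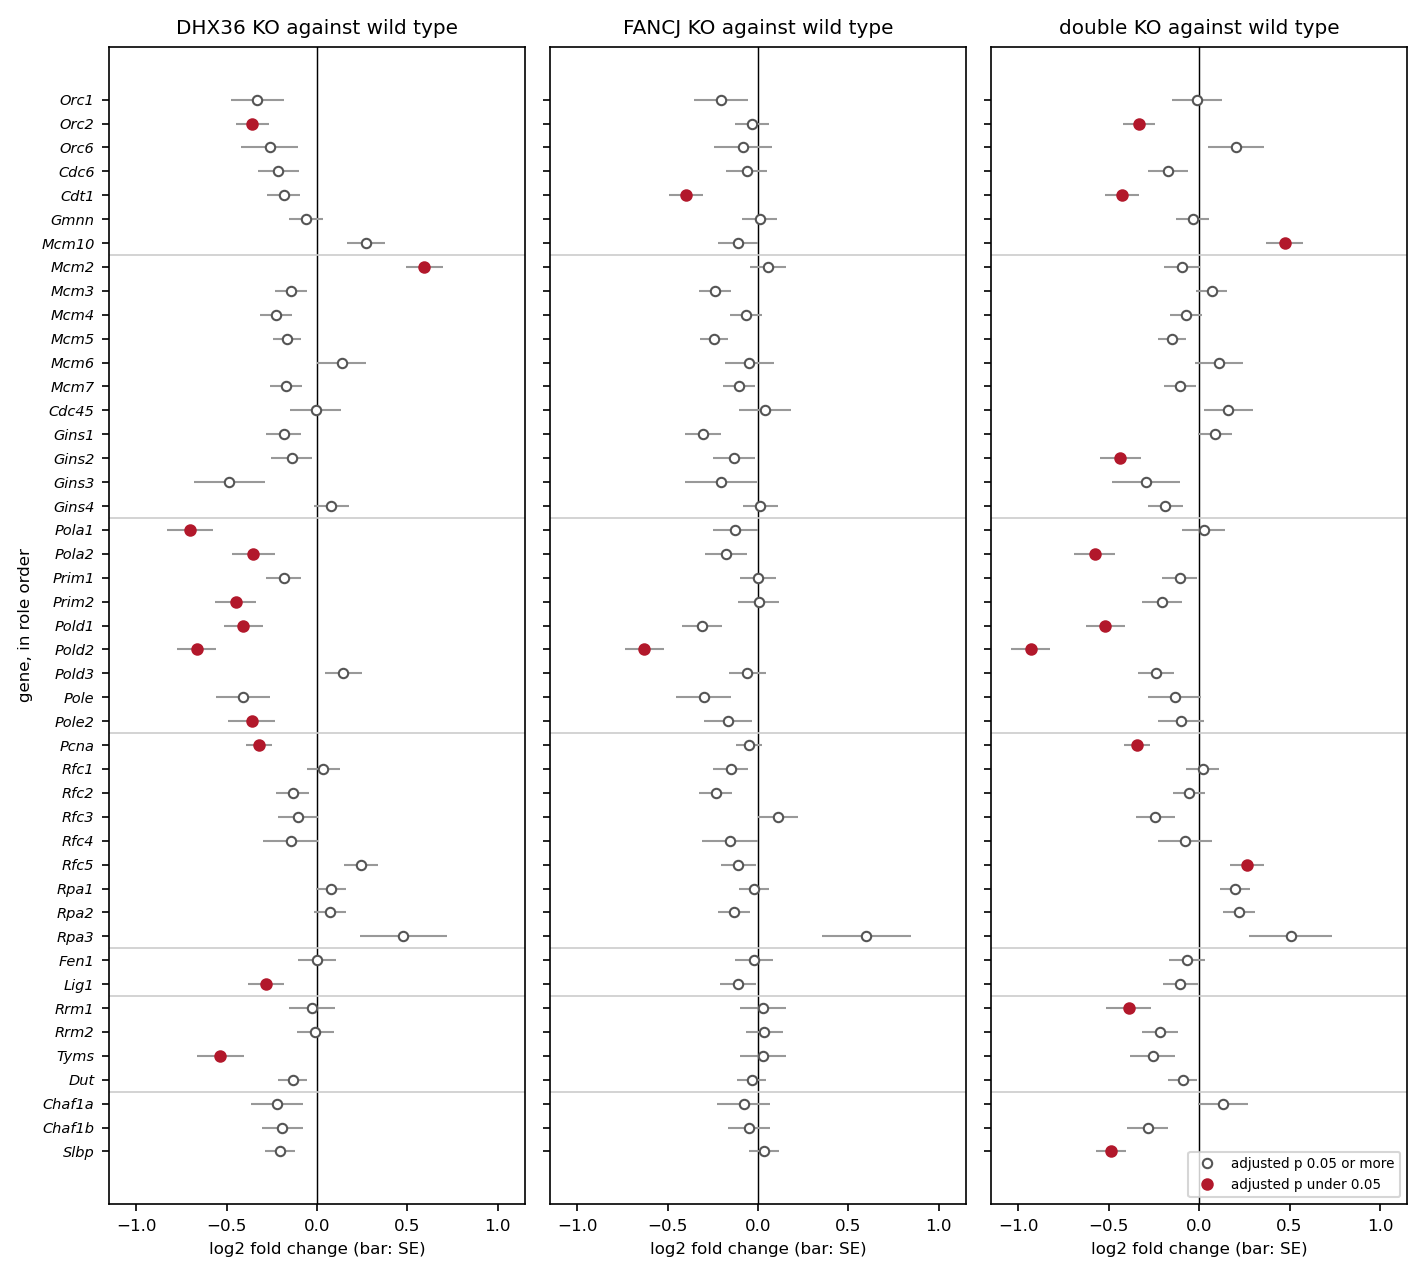
Log2 fold change against wild type (points, with SE as bars) of each member in the DHX36, FANCJ and double knockouts, filled where the adjusted p was under 0.05. Pold2 is filled in all 3 panels, and 11, 2 and 11 members are filled in turn.

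Markers of cell type moved with the genotypes and are given as values. All 10 embryonic stem cell markers were detected in every library, with summed levels of 4610 to 4714 CPM in wild type, 5248 to 5531 without DHX36, 4166 to 4374 without FANCJ and 6475 to 6522 without both. Primitive endoderm markers summed to 484 to 606, 494 to 516, 703 to 732 and 438 to 505 CPM in the same order. Of 11 tested, 2 rose and 3 fell in the DHX36 knockout, 7 rose in the FANCJ knockout, and 3 rose and 3 fell without both. Among all genes tested, 24.4%, 2.07% and 33.9% passed in the DHX36, FANCJ and double knockouts. Of the 10 stem cell markers, 4 rose in the DHX36 knockout and 8 with both genes lost. In the FANCJ knockout none of these markers passed (median log2 fold change -0.13). Trophoblast markers summed to 849 to 1007, 547 to 622, 1026 to 1080 and 399 to 428 CPM, with Elf5 at or near 0. Of 9 tested, 2 rose and 3 fell in the DHX36 knockout, 1 rose without FANCJ, and 5 rose and 3 fell without both (median log2 fold change 0.41), although the sum was lower there. Fibroblast markers summed to 437 to 526, 302 to 308, 535 to 596 and 142 to 151 CPM, with Postn, Lum and Dcn at or near 0. Of 7 tested, 2 rose and 2 fell in the DHX36 knockout (median 0.33), 1 rose without FANCJ, and 1 rose and 5 fell without both (median -0.68). Their part in the members' differences was not tested, and in bulk libraries fewer cells of a type or phase and less RNA per cell cannot be told apart.

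Of the polymerase and primase subunits, 6 of 9 fell in the DHX36 knockout, more than in any other role group there. In the FANCJ knockout 1 of 9 fell, and 3 of 9 did when both genes were lost. In the same order, 11.6%, 0.619% and 17.3% of all genes fell. Of the 6 calls in the DHX36 knockout, those of Pola2 and Pole2 were lost in 6 and 11 of 18 alternatives. The group's median log2 fold change in the DHX36 knockout was -0.41. Summed over the 9 subunits, the level was 417 ± 11.8 CPM in wild type, 322 ± 9.43 without DHX36, 358 ± 9.11 without FANCJ and 326 ± 16.0 without both (SD, n = 3), and no knockout library reached the lowest wild-type library. Abundant subunits weigh most in this sum. The mean of Pold2 alone was 85.1 CPM in wild type and 53.5, 55.2 and 44.5 in the DHX36, FANCJ and double knockouts. Prim1, the catalytic primase subunit, passed in no comparison (DHX36 knockout -0.18, SE 0.10, adjusted p = 0.186).

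Pold2 encodes the accessory subunit that joins the catalytic and other small subunits of polymerase delta (ENSMUSG00000020471, GRCm38 chromosome 11, 5872180 to 5878292, minus strand). Its level was 87.2, 76.4 and 91.8 CPM in wild-type libraries, 47.9, 53 and 59.4 in those of the DHX36 knockout, 49.6, 53.6 and 62.5 in FANCJ knockouts and 46.1, 44.8 and 42.5 in double knockouts. Every knockout library lay below every wild-type library, and the double knockout libraries were the lowest of the 12. The mean went from 85.1 ± 7.93 CPM in wild type to 53.5 ± 5.77, 55.2 ± 6.60 and 44.5 ± 1.85 in the DHX36, FANCJ and double knockouts (SD, n = 3). Its log2 fold changes were -0.67 (SE 0.11, adjusted p = 9.3e-05), -0.63 (SE 0.11, adjusted p = 0.00338) and -0.93 (SE 0.11, adjusted p = 6.6e-07). The interaction, that is, how far the effect of FANCJ loss differed without DHX36, was 0.36 (SE 0.15, adjusted p = 0.155) and missed the threshold.

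Pold1 encodes the catalytic subunit of the same polymerase. It measured 41, 42.1 and 41.2 CPM in wild-type libraries, 28.9, 30.2 and 34.4 in those of the DHX36 knockout, 34.2, 35.2 and 30.3 in FANCJ knockouts and 30.9, 29 and 26.7 in double knockouts, with all 9 knockout libraries under the lowest of wild type. It fell in the DHX36 knockout (-0.41, SE 0.11, adjusted p = 0.00938) and the double knockout (-0.52, SE 0.11, adjusted p = 7.8e-04), and in the FANCJ knockout the value was -0.31 (SE 0.11, adjusted p = 0.174). Pold3, another accessory subunit, was at 0.15 in the DHX36 knockout (adjusted p = 0.316). Its double knockout libraries, at 33, 31.5 and 31.5 CPM, all lay under wild type, at 40.7, 36.2 and 36.5, with a fold change of -0.24 that missed the threshold (adjusted p = 0.0693).

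Pola1, the catalytic subunit of polymerase alpha (ENSMUSG00000006678, chromosome X, 93304767 to 93632155, minus strand), was low in the DHX36 knockout alone among the 4 genotypes. Its level was 27.7, 29.5 and 32.6 CPM in wild-type libraries, 18.6, 17.8 and 18.5 in those of the DHX36 knockout, 29.5, 28.5 and 23.5 in FANCJ knockouts and 33.4, 30.5 and 27.2 in double knockouts. The 3 DHX36 knockout libraries lay under all 9 others, which overlapped each other. The DHX36 knockout differed from wild type by -0.71 (SE 0.13, adjusted p = 3.0e-04), and the double knockout by 0.03 (SE 0.12, adjusted p = 0.889). Pola2, its regulatory subunit, had another order, at 55.1, 45.6 and 49.7 CPM in wild-type libraries, 44.5, 38.7 and 34.6 in those of the DHX36 knockout, 44, 49.2 and 38.8 in FANCJ knockouts and 32.9, 33 and 34.6 in double knockouts. It fell by 0.58 on the log2 scale in the double knockout (SE 0.12, adjusted p = 5.1e-04), with no overlap with wild type. In the DHX36 knockout Pola2 also fell (-0.35, SE 0.12, adjusted p = 0.0318), but this call was lost without wild-type library 1 (adjusted p = 0.132), wild-type library 3 (0.0543), DHX36 knockout library 2 (0.0743) or DHX36 knockout library 3 (0.160), at equal depth (0.0520) and with only the 2 genotypes compared (0.0520).

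Prim2, the large primase subunit, measured 35.9, 39.1 and 41.9 CPM in wild-type libraries, 27.6, 27.2 and 30.5 in those of the DHX36 knockout, 38.5, 35.6 and 43.5 in FANCJ knockouts and 33.4, 32.2 and 35.7 in double knockouts. It fell in the DHX36 knockout (-0.45, SE 0.11, adjusted p = 0.00541), with no overlap between the libraries, and its FANCJ knockout libraries overlapped those of wild type (0.00, adjusted p = 0.996). For polymerase epsilon, Pole2, which encodes its accessory subunit, measured 28.8, 31.8 and 35.1 CPM in wild-type libraries, 27, 22.3 and 24.9 in those of the DHX36 knockout, 30.3, 27 and 27.9 in FANCJ knockouts and 31.2, 32.8 and 25 in double knockouts. Pole2 fell in the DHX36 knockout (-0.36, SE 0.13, adjusted p = 0.0459), and Pole, the catalytic subunit, stood just past the threshold on the other side (-0.41, SE 0.15, adjusted p = 0.0503). Both genes had all 3 DHX36 knockout libraries under wild type. Pole2 overlaps the coding gene Gm49384 on the same strand near its 3′ end, and Gm49384 was not among the genes tested. The Pole2 call was lost without wild-type library 2 (adjusted p = 0.0910) or 3 (0.149), DHX36 knockout library 2 (0.146) or 3 (0.0962), FANCJ knockout library 3 (0.0510) or double knockout library 1 (0.0547). It was also lost with DESeq2's test (0.0550), no expression filter (0.0643), a replicate block (0.0573), equal depth (0.0768) or only the 2 genotypes compared (0.0591), so that 11 of 18 alternatives lost it.

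Of the 11 helicase subunits, 1 rose in the DHX36 knockout, none passed in the FANCJ knockout and 1 fell in the double knockout. In the same order, 24.4%, 2.07% and 33.9% of all genes passed. Mcm2 (ENSMUSG00000002870, chromosome 6, 88883474 to 88898780, minus strand) was the single member that rose in the DHX36 knockout. Its level was 146, 154 and 191 CPM in wild-type libraries, 259.6, 246 and 235 in those of the DHX36 knockout, 171, 185 and 152 in FANCJ knockouts and 166, 149 and 145 in double knockouts. The 3 DHX36 knockout libraries lay above all 9 others, and the double knockout overlapped wild type. The log2 fold change was 0.59 in the DHX36 knockout (SE 0.10, adjusted p = 1.5e-04) and -0.09 in the double knockout (SE 0.10, adjusted p = 0.502).

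The other ring subunits assemble with Mcm2 in equal number, and none of the 5 passed against wild type in any genotype. Mcm3 measured 98.8, 95.3 and 102 CPM in wild-type libraries, 99.6, 84 and 84.3 in those of the DHX36 knockout, 82.1, 86.6 and 82.7 in FANCJ knockouts and 104, 102 and 105 in double knockouts, lowest in the FANCJ knockout, where all libraries lay under wild type (-0.24, SE 0.09, adjusted p = 0.198). Mcm4 measured 126, 119.9 and 124 CPM in wild-type libraries, 106, 112 and 99 in those of the DHX36 knockout, 113, 129.6 and 110.2 in FANCJ knockouts and 117, 111 and 124 in double knockouts, with the DHX36 knockout under wild type in all libraries (-0.23, SE 0.09, adjusted p = 0.0657). Mcm5 measured 225, 228 and 235 CPM in wild-type libraries, 211, 196 and 205 in those of the DHX36 knockout, 199, 191 and 191 in FANCJ knockouts and 197, 217 and 206 in double knockouts, and each knockout genotype lay under wild type without overlap, with fold changes from -0.24 to -0.15. Those differences missed the threshold (adjusted p = 0.117, 0.114 and 0.133). Mcm6 varied most between libraries of 1 genotype, at 228, 188 and 223 CPM in wild-type libraries, 298, 223 and 180.3 in those of the DHX36 knockout, 190.0, 222 and 205 in FANCJ knockouts and 248, 239 and 201 in double knockouts, and all groups overlapped. Mcm7 measured 499.5, 502 and 588 CPM in wild-type libraries, 498, 490.4 and 422 in those of the DHX36 knockout, 483, 473 and 519.7 in FANCJ knockouts and 476, 474 and 526 in double knockouts, with fold changes of -0.17, -0.11 and -0.11. Near its 3′ end Mcm7 overlaps Cops6 on the opposite strand, which fell in the DHX36 knockout (-0.60, adjusted p = 0.0267), and how strand was handled is not stated in those sources.

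The GINS complex has 4 subunits, and with Cdc45 it activates the MCM ring. Gins2 measured 47.2, 55 and 46.1 CPM in wild-type libraries, 50.5, 41 and 43.3 in those of the DHX36 knockout, 43.1, 51.5 and 40.6 in FANCJ knockouts and 36.9, 36 and 37 in double knockouts. It fell in the double knockout (-0.44, SE 0.11, adjusted p = 0.00467), where the 3 libraries were nearly equal and under all 9 others. Near its 3′ end Gins2 overlaps Gse1 on the opposite strand, which rose in the double knockout (0.30, adjusted p = 0.0257). Gins1, Gins3, Gins4 and Cdc45 did not pass against wild type, with log2 fold changes between -0.49 (Gins3 in the DHX36 knockout) and 0.16 (Cdc45 in the double knockout).

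Among the 7 licensing and firing factors, 1 fell in the DHX36 knockout, 1 fell in the FANCJ knockout, and 1 rose and 2 fell in the double knockout. In the same order, 24.4%, 2.07% and 33.9% of all genes passed. Cdt1, which brings the MCM ring to origins (ENSMUSG00000006585, chromosome 8, 122568015 to 122573554, plus strand), measured 225, 193 and 181 CPM in wild-type libraries, 186, 185 and 155 in those of the DHX36 knockout, 148, 158 and 148 in FANCJ knockouts and 152, 142 and 151 in double knockouts. All 6 libraries without FANCJ lay under the lowest wild-type library, and the DHX36 knockout overlapped wild type. The log2 fold change was -0.40 in the FANCJ knockout (SE 0.09, adjusted p = 0.0286), -0.43 in the double knockout (SE 0.09, adjusted p = 0.00110) and -0.19 in the DHX36 knockout (adjusted p = 0.156). In the FANCJ knockout the call was lost without wild-type library 1 (adjusted p = 0.169) or 2 (0.0620), or FANCJ knockout library 1 (0.126), 2 (0.0505) or 3 (0.0901).

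Orc2, a subunit of the origin recognition complex, measured 112, 104 and 111 CPM in wild-type libraries, 91.9, 79.3 and 83.6 in those of the DHX36 knockout, 102, 115 and 102 in FANCJ knockouts and 79.3, 92.8 and 87.7 in double knockouts. It fell in the DHX36 knockout (-0.36, SE 0.09, adjusted p = 0.00658) and in the double knockout (-0.33, SE 0.09, adjusted p = 0.00699), and the 6 libraries without DHX36 lay under the 6 with it. Near its 3′ end Orc2 overlaps Nif3l1 on the opposite strand, which was also lower (DHX36 knockout -0.37, adjusted p = 0.0575, and double knockout -0.52, adjusted p = 0.00507). Mcm10, which helps to activate the loaded helicase, rose in the double knockout (0.47, SE 0.10, adjusted p = 0.00123), from 49.6, 61.7 and 67 CPM in wild type to 81.6, 84.8 and 81. It measured 75, 74.2 and 66 CPM in the DHX36 knockout (0.27, adjusted p = 0.0674) and 50.9, 59.2 and 55.1 in the FANCJ knockout.

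Cdc6, which works with ORC to load the ring, measured 46.5, 43.8 and 52 CPM in wild-type libraries, 44.5, 42.3 and 36 in those of the DHX36 knockout, 46.1, 48.7 and 40.4 in FANCJ knockouts and 41.5, 44.3 and 40.3 in double knockouts, and all groups overlapped. Gmnn encodes geminin, the inhibitor of Cdt1. Its level was 87.7, 88 and 81.3 CPM in wild-type libraries, 79.3, 85.1 and 82.6 in those of the DHX36 knockout, 90.5, 81.5 and 86.7 in FANCJ knockouts and 94.5, 79.9 and 76.2 in double knockouts, with fold changes against wild type from -0.06 to 0.01 and no group apart from another. Orc1 and Orc6 also did not pass against wild type, at -0.33 and -0.26 in the DHX36 knockout.

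Of the 9 clamp, clamp loader and single-strand binding genes, 1 fell in the DHX36 knockout, none passed in the FANCJ knockout, and 1 rose and 1 fell in the double knockout. In the same order, 24.4%, 2.07% and 33.9% of all genes passed. Pcna, the sliding clamp, measured 799, 809 and 792 CPM in wild-type libraries, 667, 636 and 618 in those of the DHX36 knockout, 774, 738 and 807 in FANCJ knockouts and 646, 638 and 605 in double knockouts. The 6 libraries without DHX36 lay between 605 and 667 CPM, under the 6 with it, which lay between 738 and 809. Pcna fell by 0.32 on the log2 scale in the DHX36 knockout (SE 0.07, adjusted p = 0.00237) and by 0.35 in the double knockout (SE 0.07, adjusted p = 8.2e-04), and the FANCJ knockout was at -0.05 (adjusted p = 0.808).

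Rfc5, a subunit of the loader that opens the clamp, measured 74.4, 82.2 and 73.1 CPM in wild-type libraries, 95.3, 91.4 and 85.7 in those of the DHX36 knockout, 70.6, 72.3 and 70.4 in FANCJ knockouts and 84.3, 89.4 and 103 in double knockouts. It rose in the double knockout (0.27, SE 0.09, adjusted p = 0.0308), a call lost without wild-type library 1 (adjusted p = 0.0896), wild-type library 3 (0.110) or double knockout library 3 (0.156), at equal depth (0.0578) and with only the 2 genotypes compared (0.0501). Rfc5 overlaps Wsb2 on the opposite strand near its 3′ end. Wsb2 was not past the threshold in the double knockout (adjusted p = 0.275), and it rose in the DHX36 knockout (0.37, adjusted p = 0.0207), where the Rfc5 value was 0.24 (adjusted p = 0.0636). The other loader subunits, Rfc1 to Rfc4, lay between -0.24 (Rfc3 in the double knockout) and 0.11 (Rfc3 in the FANCJ knockout) in the comparisons with wild type, none past the threshold. Rpa1, Rpa2 and Rpa3 form the complex that coats single-stranded DNA, and none passed against wild type. Rpa3, the gene with the fewest counts, measured 3.32, 4.77 and 3.51 CPM in wild-type libraries, 5.67, 5.37 and 5.36 in those of the DHX36 knockout, 5.67, 6.38 and 5.78 in FANCJ knockouts and 6.36, 5.90 and 4.36 in double knockouts, so that its log2 fold changes of 0.48, 0.60 and 0.51 carried SEs of 0.24, 0.24 and 0.23 (adjusted p = 0.158, 0.237 and 0.0973).

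Lig1, the ligase that seals Okazaki fragments, measured 149.7, 128 and 118 CPM in wild-type libraries, 111, 101 and 113 in those of the DHX36 knockout, 124, 123 and 119 in FANCJ knockouts and 121, 110.0 and 137 in double knockouts. It fell in the DHX36 knockout (-0.28, SE 0.10, adjusted p = 0.0410), but the call was lost without wild-type library 1 (adjusted p = 0.217) or 2 (0.0564), DHX36 knockout library 1 (0.0548), 2 (0.144) or 3 (0.0589), or double knockout library 1 (0.0508), at equal depth (0.0607) and with only the 2 genotypes compared (0.0651). Fen1, the nuclease that removes the flaps ahead of ligation, overlapped wild type in each genotype, with adjusted p = 0.998, 0.955 and 0.648.

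Nucleotide supply genes differed from each other. Tyms, thymidylate synthase, measured 42.5, 50.4 and 41.9 CPM in wild-type libraries, 31.4, 30.2 and 31.7 in those of the DHX36 knockout, 49.9, 51.6 and 35.1 in FANCJ knockouts and 35.1, 39.2 and 39 in double knockouts. It fell in the DHX36 knockout (-0.54, SE 0.13, adjusted p = 0.00407), where all libraries lay under wild type, and the double knockout was at -0.26 (adjusted p = 0.118). Ribonucleotide reductase is made of the large subunit Rrm1 and the small subunit Rrm2. Rrm1 measured 46.3, 52 and 58.8 CPM in wild-type libraries, 59.4, 51.6 and 43.4 in those of the DHX36 knockout, 50.1, 61.4 and 47.9 in FANCJ knockouts and 42.6, 39.1 and 37.8 in double knockouts and fell in the double knockout (-0.39, SE 0.13, adjusted p = 0.0199). That call was lost without wild-type library 2 (adjusted p = 0.0501) or 3 (0.0955), or double knockout library 2 (0.0602) or 3 (0.0669), and at equal depth (0.0711). Rrm2 measured 1549, 1552 and 1798 CPM in wild-type libraries, 1615, 1659 and 1596 in those of the DHX36 knockout, 1662, 1737 and 1622 in FANCJ knockouts and 1568, 1528 and 1119.7 in double knockouts, and the double knockout value of -0.22 (SE 0.10, adjusted p = 0.101) missed the threshold, with its library 3 below the other 11. Without library 1 of that genotype it passed (adjusted p = 0.0420), and without its library 3 it was -0.07 (adjusted p = 0.549). Dut, the enzyme that clears dUTP, had fold changes from -0.13 to -0.04.

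Slbp binds the stem-loop of replication-dependent histone mRNAs and is itself made ahead of S phase. It measured 204, 221 and 225 CPM in wild-type libraries, 177, 198 and 189.8 in those of the DHX36 knockout, 214, 227 and 224 in FANCJ knockouts and 157, 164 and 143 in double knockouts. The double knockout libraries lay under the other 9, and the DHX36 knockout libraries under the 6 with DHX36. Slbp fell by 0.49 on the log2 scale in the double knockout (SE 0.08, adjusted p = 8.3e-05), and the DHX36 knockout was at -0.20 (SE 0.08, adjusted p = 0.0754). Chaf1a and Chaf1b, subunits of the chromatin assembly factor that deposits histones behind the fork, did not pass against wild type in any genotype. The levels of 12 members by library are plotted together.

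**Figure D4:**
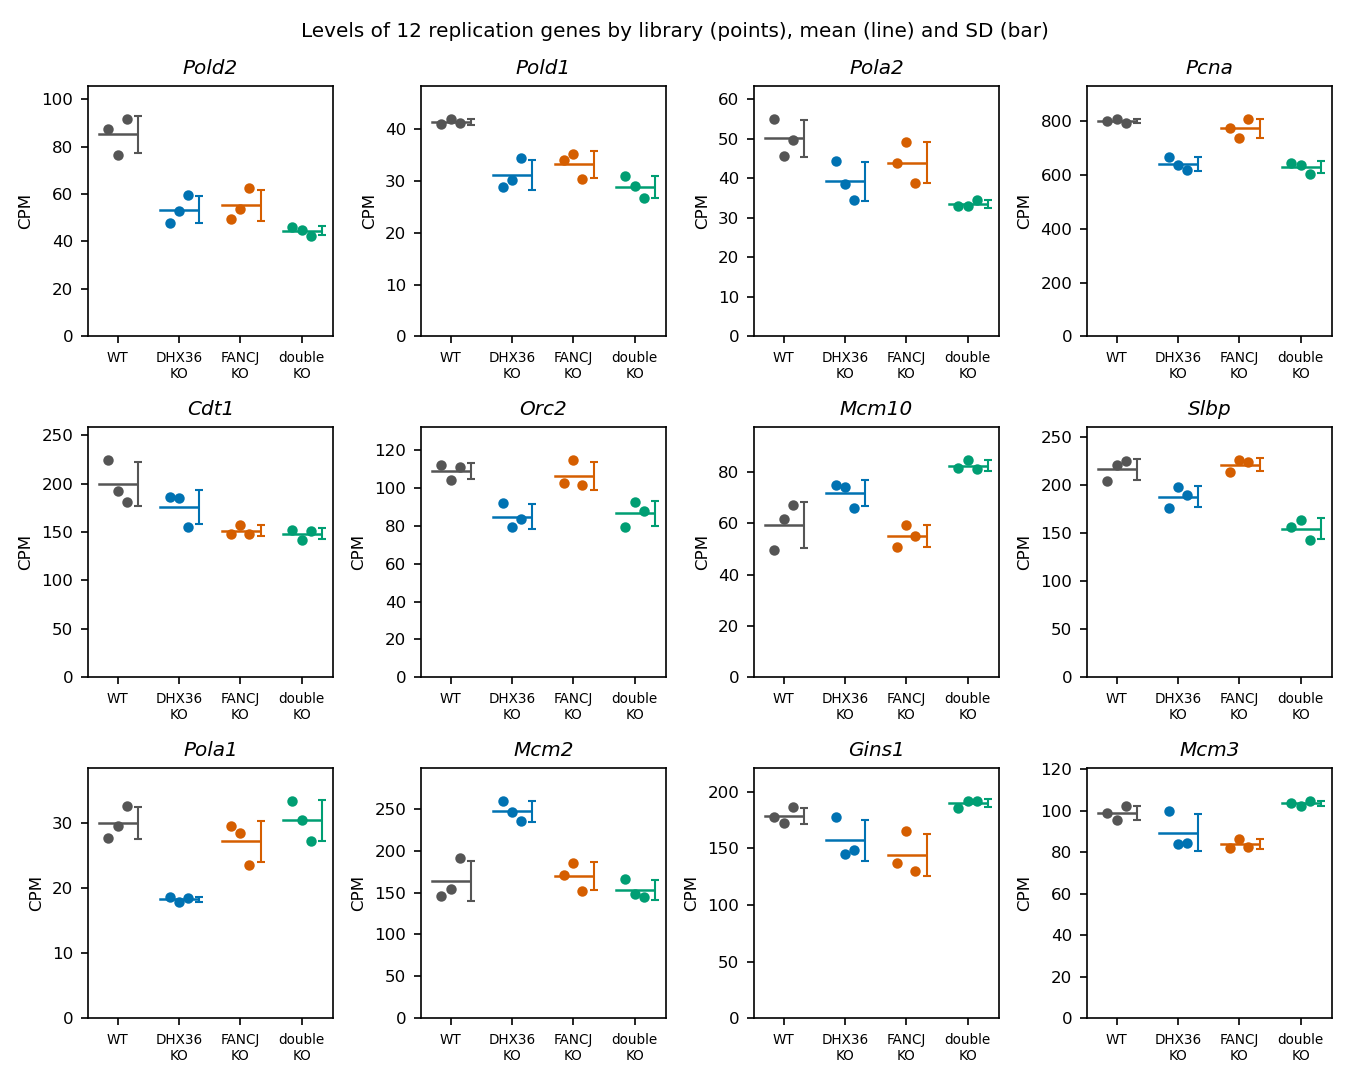
CPM of 12 members in each library (points), with the genotype mean (line) and SD (bar, n = 3), in wild type, DHX36 knockout, FANCJ knockout and double knockout. Pold2 is lower in all 3 knockouts, Pcna and Orc2 are lower in both genotypes without DHX36, and Pola1 and Mcm2 stand apart in the DHX36 knockout only.

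The double knockout was then set against each single knockout, to give the effect of losing the second helicase. Against the DHX36 knockout 3 members rose and 5 fell (17.8%), where 19.7% of all genes passed, 8.28% up and 11.4% down. The largest differences were those of Pola1, which rose (0.73, SE 0.12, adjusted p = 1.1e-04), and Mcm2, which fell (-0.69, SE 0.10, adjusted p = 3.0e-05), and in both genes the libraries of the 2 genotypes did not overlap. Pold3 also fell (-0.39, SE 0.09, adjusted p = 0.00548). The remaining calls were Orc6 (0.47, SE 0.15), Gins1 (0.27, SE 0.09), Rrm1 (-0.36, SE 0.12), Slbp (-0.28, SE 0.08) and Gins4 (-0.27, SE 0.09). Without DHX36 knockout library 2 the count of members fell from 8 to 3, without double knockout library 3 to 4, and without double knockout library 1 or 2 to 5. Without DHX36 knockout library 2 the calls of all 5 of these genes were lost, at adjusted p from 0.0702 (Orc6) to 0.180 (Gins1). The same 5 were lost without double knockout library 3, at 0.0816 (Gins4) to 0.122 (Rrm1), and another member passed. Without double knockout library 1 those of Orc6 (0.195), Gins1 (0.0809) and Gins4 (0.142) were lost, and without library 2 those of Gins1 (0.111), Gins4 (0.109) and Rrm1 (0.109). Calls were also lost without DHX36 knockout library 1 for Orc6 (adjusted p = 0.205), Rrm1 (0.228) and Gins4 (0.0987), and without DHX36 knockout library 3 for Gins1 (0.154) and Gins4 (0.104). Of the other alternatives, DESeq2's test lost Orc6 (adjusted p = 0.126) and a replicate block lost Gins1 (0.0591). Equal depth lost Rrm1 (0.0986) and Gins4 (0.0650), and no expression filter lost Gins4 (0.111). Gins4, at adjusted p = 0.0473 with all libraries, lost its call in 10 of the 12 fits that leave out 1 library, and Pola1, Mcm2 and Pold3 kept theirs in all 12. Among all genes tested, 1789 to 2657 passed in those 12 fits, against 2512 with all libraries.

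Against the FANCJ knockout, 6 members rose and 8 fell (31.1%), where 36.8% of all genes passed, 18.3% up and 18.5% down. The rises were Mcm10 (0.58, SE 0.10, adjusted p = 1.1e-04), Gins1 (0.39, SE 0.10), Rfc5 (0.37, SE 0.09), Rpa2 (0.35, SE 0.09), Mcm3 (0.31, SE 0.09) and Rpa1 (0.22, SE 0.08). The falls were led by Slbp (-0.52, SE 0.08, adjusted p = 3.1e-05), Rrm1 (-0.42, SE 0.12), Pola2 (-0.40, SE 0.11) and Rfc3 (-0.35, SE 0.11), with Gins2, Pold2, Orc2 and Pcna between -0.30 and -0.29. Without FANCJ knockout library 2 the count of members fell from 14 to 8, with Gins2 (adjusted p = 0.228), Rpa1 (0.118), Rrm1 (0.0886), Orc2 (0.0738), Pola2 (0.0626) and Pold2 (0.0526) no longer past the threshold. Among all genes tested, 3869 to 4832 passed in the fits that leave out 1 library, against 4697 with all libraries. Calls were also lost for Pold2 without FANCJ knockout library 3 (adjusted p = 0.161) or double knockout library 2 (0.0676) or 3 (0.0894), and for Gins2 without double knockout library 1 (0.0745), 2 (0.0947) or 3 (0.0616). Orc2 (0.0740) and Rfc3 (0.0536) lost theirs without double knockout library 1, and Rpa1 without any 1 of the 6 libraries compared (0.0605 to 0.118). Equal depth lost Rfc3 (adjusted p = 0.0564), Rpa1 (0.0720) and Rrm1 (0.0708), and no expression filter lost Rpa1 (0.117). Rrm2, uncalled with all libraries (0.0530), passed in 7 of 18 alternatives. Among cells without FANCJ, the libraries that also lacked DHX36 thus had less Slbp and Pcna and more Mcm10 and Rfc5, with no overlap in any of these 4 genes.

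Whether the effect of FANCJ loss depended on DHX36 was tested by the interaction, the log2 fold change of double against DHX36 knockout minus that of FANCJ knockout against wild type. It passed for 4 members (8.89%), 3 above 0 and 1 under, beside 8.79% of all genes, 2.73% above 0 and 6.06% under, and its median over the members was 0.14 beside 0.00 for all genes. For Pola1 the effect of FANCJ loss was -0.13 with DHX36 and 0.73 without it, a difference of 0.86 (SE 0.17, adjusted p = 0.00231). For Mcm2 it was 0.06 and -0.69, a difference of -0.74 (SE 0.14, adjusted p = 0.00150). In both genes the double knockout stood at the wild-type level and the DHX36 knockout alone stood apart.

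For Gins1 and Mcm3 the means of both single knockouts were under those of wild type and of the double knockout. Gins1 (ENSMUSG00000027454, chromosome 2, 150905400 to 150931280, plus strand) measured 178, 173 and 186 CPM in wild-type libraries, 178, 145 and 149 in those of the DHX36 knockout, 138, 165 and 130.4 in FANCJ knockouts and 186, 192 and 192 in double knockouts. Its effect of FANCJ loss was -0.30 with DHX36 and 0.27 without, a difference of 0.58 (SE 0.14, adjusted p = 0.00793). For Mcm3 the effects were -0.24 and 0.21, a difference of 0.45 (SE 0.12, adjusted p = 0.0223). The Mcm3 difference was lost without DHX36 knockout library 2 (adjusted p = 0.0613), DHX36 knockout library 3 (0.0627) or FANCJ knockout library 1 (0.0607). Of these 4 genes, Pola1 and Mcm3 held E2F letters in the printed promoters, Mcm2 did not, and Gins1 had no window.

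**Figure D5:**
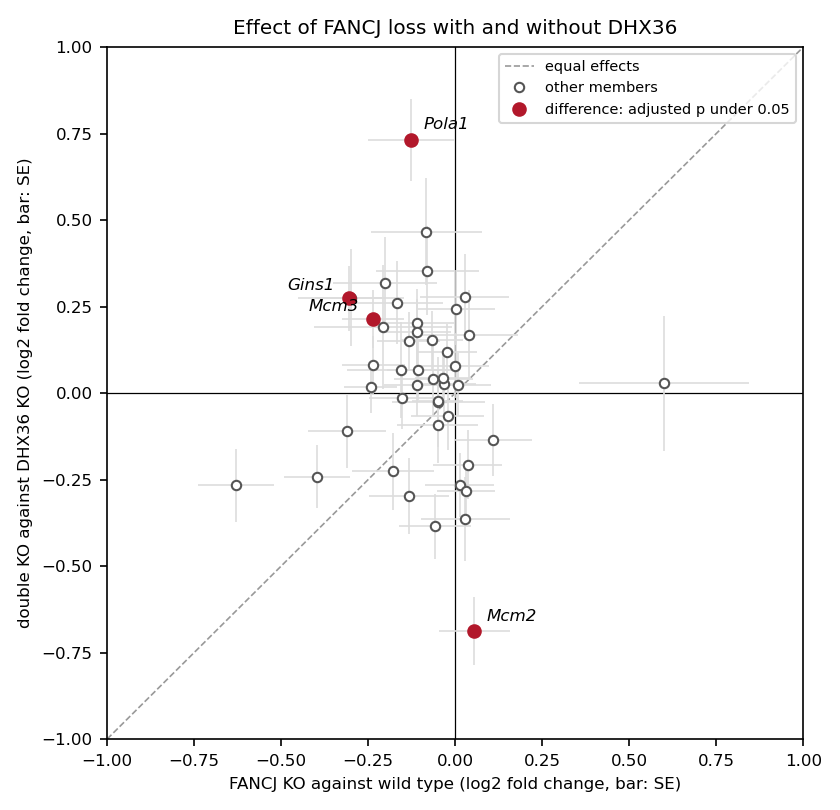
Log2 fold change of FANCJ loss with DHX36 (FANCJ knockout against wild type, x) and without DHX36 (double against DHX36 knockout, y) for the 45 members, bars showing SE and the dashed line equal effects. The 4 filled members, whose difference passed the threshold, are Pola1, Gins1 and Mcm3 above the line and Mcm2 under it.

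Other genes of the replication pathway that are not members were counted from a list of 43 further factors. In the DHX36 knockout 1 rose and 6 fell (16.3%, beside 24.4% of all genes), and in the double knockout 5 rose and 8 fell (30.2%, beside 33.9%). None passed in the FANCJ knockout, beside 2.07% of all genes, and 1 had an unadjusted p under 0.05, beside 15% of all genes. Fam111a, a protease that clears obstacles from replication forks, went from 58.8 ± 3.40 CPM in wild type to 8.72 ± 2.43 in the DHX36 knockout and 12.4 ± 0.917 in the double knockout (SD, n = 3). Tk1, the thymidine kinase of the salvage route, fell by 1.23 and 1.01 on the log2 scale in the same genotypes. Recql4 (-0.74) and Chtf18 (-0.73) fell in the DHX36 knockout, and Mtbp (0.68) and Rif1 (0.63), a regulator of replication timing, rose in the double knockout. Recql4, with 3.40 ± 0.521 CPM in that knockout, rested on 20 to 36 counts a library. Its call (adjusted p = 0.0432) was lost in 10 of 18 alternatives, among them equal depth (-0.44, adjusted p = 0.286), DESeq2's test (0.0669), no expression filter (0.0555), a replicate block (0.0611) and only the 2 genotypes compared (0.0559). The others left out wild-type library 2 (0.192) or 3 (0.0734), DHX36 knockout library 2 (0.0934) or 3 (0.133), or double knockout library 1 (0.0508).

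Of 27 regulators of G1 and S phase, among them the E2F factors, 3 rose and 7 fell in the DHX36 knockout (37.0%, beside 24.4% of all genes). With both genes lost 4 rose and 10 fell (51.9%, beside 33.9%). None passed in the FANCJ knockout, beside 2.07% of all genes, and 4 had an unadjusted p under 0.05, beside 15% of all genes. E2f2, an activating E2F, rose by 1.54 and 1.86 in the genotypes without DHX36, and E2f8, a repressing E2F, was at -0.67 and -1.29. In the DHX36 knockout Cdkn1b, the p27 inhibitor of cyclin-dependent kinases, rose (1.21), while Skp2, which targets p27 for destruction, and Cdk6 fell (-0.85 and -0.70). In the double knockout Ccnd2 (-1.46) and Ccnd1 (-1.09), the D-type cyclins, fell and Cdkn1b was at -0.05. Of 24 genes of G2 and mitosis, 2 fell in the DHX36 knockout (8.33%, beside 24.4%), and 6 rose and 1 fell in the double knockout (29.2%, beside 33.9%). None of them passed in the FANCJ knockout, beside 2.07% of all genes, and 5 had an unadjusted p under 0.05, beside 15%.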

How the data were processed

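RNA was measured in 12 libraries of IB10 cells, 3 per genotype, by a protocol like CEL-Seq2, per the labels' protocols, in which barcoded primers tag the 3′ ends of polyadenylated transcripts before pooling. The authors deposited raw whole-number counts. The submitters' processing notes name BWA as aligner, with GRCm38 and hg38 as builds and no versions or roles. The sources used here do not say whether a count is a read or a molecule, nor how strand and multiply aligned reads were handled. Groups came from the sample titles. The 92 spike-ins were left out.

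The deposited counts went into edgeR 4.0.16 under R 4.3.3 (TMM normalisation, filterByExpr by genotype, glmQLFit and glmQLFTest, two-sided), all 12 libraries in 1 model with genotype as its term, over 12765 genes. Contrasts were each knockout against wild type, the double against each single knockout, and the interaction. Standard errors were the fold change over the root of F, and CPM used TMM-scaled totals. Counts of same-genotype libraries gave a chi-square of 4.11 to 12.3 per degree of freedom, more than counting noise, so no libraries were treated as 1 deposited more than once. Alternatives were DESeq2 size factors, DESeq2 1.42.0's Wald test, no expression filter, a replicate block, thinning to 4284785 counts, only the 2 genotypes compared, and leaving out each library. Genes named with values in every library were the members past the threshold against wild type and Mcm2 to Mcm7, Cdc6, Cdt1, Gmnn, Pola1, Pcna and Rrm2. For other contrasts the called members were named, up to 10 by size, and of the lists of other factors and G1 and S phase regulators up to 4 per comparison with wild type. In the double against the FANCJ knockout all 14 called members were named, the 4 beyond those 10 after their values were seen, as were the library values of Gins1, Pold3 and Rpa3. E2f8 in the DHX36 knockout, Cdkn1b in the double knockout and the partner genes of overlaps were named after their values were seen. Members and lists were chosen with earlier results of these data known. Gene coordinates, overlaps and transcripts came from GENCODE M21, and promoters from RefSeq, both of GRCm38.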

Additional observations from a re-analysis of the deposited data

Results flagged for a closer look

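For 4 members the effect of FANCJ loss in cells without DHX36 differed from that in cells with DHX36, by edgeR's quasi-likelihood test of the interaction with Benjamini-Hochberg adjustment over all 12765 genes. The differences of log2 fold changes were 0.86 for Pola1 (SE 0.17, adjusted p = 0.00231), -0.74 for Mcm2 (SE 0.14, adjusted p = 0.00150), 0.58 for Gins1 (SE 0.14, adjusted p = 0.00793) and 0.45 for Mcm3 (SE 0.12, adjusted p = 0.0223). The share of members, 8.89%, was near that of all genes, 8.79%.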

How the results depend on the processing

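With all libraries, 11, 2, 11, 8, 14 and 4 members passed in the DHX36, FANCJ and double knockouts against wild type, in the double against the DHX36 and the FANCJ knockout, and in the interaction. With DESeq2 size factors the numbers were 12, 2, 11, 8, 15 and 4, and with DESeq2's test 11, 2, 11, 7, 15 and 4. Leaving out 1 library gave 8 to 12, 1 to 2, 10 to 13, 3 to 9, 8 to 15 and 3 to 5. Among all genes tested, those fits gave 2503 to 3154, 110 to 265, 3498 to 4379, 1789 to 2657, 3869 to 4832 and 880 to 1071. At equal depth the numbers of members were 8, 1, 10, 7, 13 and 4. The FANCJ knockout had 1 since Cdt1 missed the threshold (adjusted p = 0.0578), as it did without wild-type library 1 or 2 or FANCJ knockout library 1, 2 or 3. In that comparison the count of all genes was 264, against 418 with no expression filter, 159 with only the 2 genotypes and 110 to 265 with 1 library left out. Replicate numbers did not pair the libraries: the 18 correlations of same-numbered libraries' deviations ran from -0.0563 to 0.0462, and 4 of 12 libraries correlated best with their own number. With a replicate block the members passing were 10, 2, 11, 7, 14 and 4. For the DESeq2, equal-depth and block fits all-gene counts are not given here, so those numbers do not set members apart from other genes. Of 2823 values of named genes under alternatives, 2664 kept their direction and side of the threshold or stayed uncalled, 149 lost the call, 10 gained it and none reversed a call. The 2664 include 63 uncalled values of opposite sign, and many values of genes that were uncalled with all libraries and had no call to lose. Depth limits Rpa3 most, with as few as 15 counts.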
